A study of Danio rerio with 20 samples.

Results

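Raraa binding was compared between untreated wild-type zebrafish embryos at 80% epiboly, late in gastrulation, and at 24 hours post fertilisation (hpf), when the body plan and the main organ rudiments are laid out. The comparison rested on the peak lists of 2 chromatin immunoprecipitation (ChIP-seq) libraries per stage, 4 of the 20 libraries of the series. A site was counted as present at a stage when peaks of both replicates overlapped by at least 1 bp, and the site was the merged extent of those peaks. Sites of both stages were then merged wherever they overlapped by at least 1 bp. This gave 29936 regions on the 25 assembled chromosomes. A region was kept when it held a site of each stage, gained when it held only a 24 hpf site, and lost when it held only an 80% epiboly site.

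All embryos were whole, wild type and raised under the same conditions, and the antibody was raised against RARaa, as the labels spell it. Binding in different tissues is therefore summed, and a site in fewer cells cannot be told apart from weaker binding per cell. The labels number the replicates but do not say that they came from separate clutches, so the spread between them may be technical. Other libraries served only as further readouts on the regions. These were Raraa in untreated embryos at 5 somites, Raraa at 80% epiboly in embryos exposed to 0.1 µM all-trans retinoic acid (atRA) from 30% epiboly, and Hoxb1b, Meis2b and Sox3 at 80% epiboly with and without the same exposure, with 2 libraries each. The treatment text of the labels names collection at 80% epiboly for every sample, so stages were taken from the titles and the stage entries.

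Raraa is a nuclear receptor that binds DNA as a heterodimer with a retinoid X receptor, typically at paired copies of a short hexamer motif called retinoic acid response elements. It can sit on DNA without its ligand and recruit corepressors, and ligand binding exchanges these for coactivators. In vertebrate embryos the pathway is known for setting anterior to posterior pattern in the hindbrain and for its part in heart, pancreas, limb or fin and neuron formation. Hoxb1b and Meis2b are homeodomain proteins of the same posterior patterning network, and Sox3 is a SoxB1 factor of early neural tissue. The peak lists give positions on the GRCz10 (danRer10) assembly. Genes, promoters and motifs at the regions were not analysed here.

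The 4 lists differed in length and depth. Replicates 1 and 2 held 23920 and 131936 peaks at 80% epiboly and 115452 and 112006 peaks at 24 hpf. The depth index, the low end of the background recovered from the authors' fold enrichment and p, was 0.394 and 0.927 fragments covering a base at 80% epiboly and 0.686 and 0.562 at 24 hpf. Replicate 1 at 80% epiboly was thus the shallowest and shortest of the 4 lists, and replicate 2 the deepest and longest. Raraa replicate 2 at 5 somites, from another stage, had a depth index of 0.393 and 116351 peaks. Why the list of 80% epiboly replicate 1 is short was not tested. The mean log2 ratio of peak number, 24 hpf over 80% epiboly, was 1.02. It lay within the spread of the replicates (exact two-sided permutation p = 1, where 0.333 is the smallest possible). Without 80% epiboly replicate 1 it was -0.21.

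Few regions were held at both stages. Of the 29936 regions, 3172 were kept (10.6%), 22044 were gained (73.6%) and 4720 were lost (15.8%). Of 7918 sites at 80% epiboly, 3198 were still present at 24 hpf, which is 40.4%, and leaving out 1 library at a time moved that share between 10.2% and 61.2%. The same overlap took up 3271 of the 25315 sites at 24 hpf, or 12.9%. The 24 hpf set was 3.20 times as large as the 80% epiboly set. Of the peaks of replicates 1 and 2 at 24 hpf, 22.6% and 23.0% lay in a site, and 6.13% of those of 80% epiboly replicate 2. In replicate 1 at 80% epiboly, the shortest list, 34.1% of the peaks lay in a site. Taking as many of the strongest peaks from every library as that list holds, 23920, left 1467 kept, 3251 gained and 2327 lost regions. When 1 library was left out, every peak of the other library of its stage counted as a site. Without 80% epiboly replicate 1 there were 12828 kept, 12353 gained and 118423 lost regions, and without replicate 2 there were 3928, 21350 and 19824. Without 24 hpf replicate 1 there were 4824 kept, 106751 gained and 3075 lost regions, and without replicate 2 there were 4098, 110968 and 3802.

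Absence at a stage was often absence from 1 library. Among the gained regions, 9707 (44.0%) held a peak of 80% epiboly replicate 2 and 827 (3.75%) a peak of replicate 1. No peak was listed in either 80% epiboly library at 11660 gained regions, which is 52.9% of gained and 38.9% of all regions. Among the lost regions, 974 (20.6%) held a peak of 24 hpf replicate 1 and 1668 (35.3%) a peak of replicate 2. No peak was listed in either 24 hpf library at 2229 lost regions, or 47.2% of lost and 7.45% of all regions. At 150 gained and 151 lost regions both libraries of the other stage held a peak, but those peaks did not overlap each other.

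**Figure D1:**
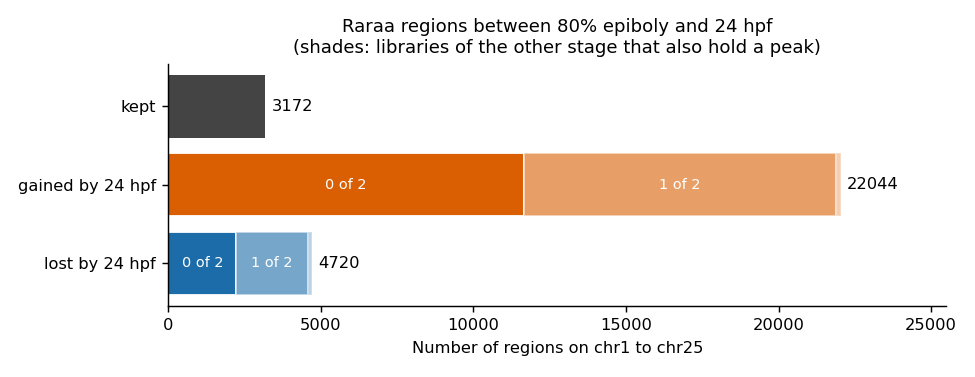
Number of kept, gained and lost Raraa regions (x axis, regions on chr1 to chr25), with gained and lost bars shaded by how many of the 2 libraries of the other stage also held a peak. Gained regions (22044) outnumbered lost (4720) and kept (3172) ones, and 11660 gained and 2229 lost regions had no peak in either library of the other stage.

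Over whole lists, replicates of a stage shared about as many peaks as libraries of different stages did. The 2 libraries at 80% epiboly shared 20.1% of their peaks (mean of both directions) and the 2 at 24 hpf shared 22.8%. Between stages, 80% epiboly replicate 2 shared 28.6% with 24 hpf replicate 2 and 22.1% with replicate 1, whereas 80% epiboly replicate 1 shared 17.9% and 14.9% with them. The mean within a stage exceeded the mean between stages by 0.567 percentage points. A one-sided exact permutation test over the 3 ways of pairing the libraries gave p = 0.667, and 0.333 is the smallest p it can give. Adjusted by Benjamini-Hochberg, this p and that for peak number were both 1. With the 10000 strongest peaks of each library the difference was 3.85 points, at the smallest possible p, and without 24 hpf replicate 1 it was -3.13 points.

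A small core of regions carried most of the strongest peaks of both stages, as a description only. Kept regions need a peak in each of these same 4 lists, so the rule itself favours strong peaks. Of the 1000 strongest peaks, 83.4% and 79.9% lay in kept regions in replicates 1 and 2 at 80% epiboly, and 74.2% and 71.0% at 24 hpf. Among the 10000 strongest, the shares in kept regions fell to 23.4% and 18.9% at 80% epiboly and 18.1% and 19.3% at 24 hpf. At 24 hpf a further 22.9% and 25.7% of the 1000 strongest peaks lay in gained regions, while at 80% epiboly 10.8% and 6.6% lay in lost regions. Strong 80% epiboly peaks also lay in gained regions, at 1.2% and 6.8% of the 1000 strongest in replicates 1 and 2. Of the 10000 strongest 80% epiboly peaks, 3.87% and 15.0% lay in gained regions and 20.8% and 7.84% in lost regions. In replicate 2, unlike replicate 1, gained regions thus held more of them than lost ones.

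Kept regions were wider and higher than the rest, as a description only, since a region called in all 4 libraries is selected for strength in those libraries. Their median width was 476.5 bp, against 278 bp for gained and 296 bp for lost regions. A region merged from 4 libraries is wider by construction than one merged from 2. At kept regions the median summit was covered by 9 and 16 fragments in the 80% epiboly libraries and by 12 and 14 in those of 24 hpf. Gained regions had medians of 8 and 8 fragments at 24 hpf, and lost regions had 7 and 10 at 80% epiboly. The gained and lost medians were within 1 fragment of those of peaks outside any region, whose medians were 6 and 9 fragments at 80% epiboly and 7 and 7 at 24 hpf. By the authors' fold enrichment, which serves here only as a description within each list, the medians at kept regions were 5.51 and 5.91 at 80% epiboly and 5.41 and 6.54 at 24 hpf. Gained regions had 4.58 and 5.12 at 24 hpf, and lost regions 4.94 and 4.79 at 80% epiboly. The median −log10 q was 3.33 and 4.16 at 24 hpf for gained and 3.41 and 4.58 at 80% epiboly for lost regions. Kept regions had 4.78 and 8.33 at 80% epiboly and 5.67 and 8.33 at 24 hpf. The classes differed most at the top, where the 90th percentile of pileup at kept regions was 38 and 72 fragments at 80% epiboly and 48 and 51 at 24 hpf, against 11 and 13 at 24 hpf for gained and 10 and 17 at 80% epiboly for lost regions.

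Summits of kept regions lay about as close between stages as between replicates, as a description only. Kept regions are chosen by overlapping peaks of these same 4 lists. The rule itself thus limits the distances, both within and between stages, and no reference outside kept regions was measured. Summits of the 2 stages lay a median of 51 to 64 bp apart in the 4 library pairs between stages. Replicates of 1 stage lay 63 bp (80% epiboly) and 53 bp (24 hpf) apart.

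Pairs within 20 bp of the overlap limit were few, but a much stricter limit removed more. At 80% epiboly 313 of 8327 overlapping replicate pairs (3.76%) shared 20 bp or less, and 274 pairs just missed, with a gap under 20 bp. At 24 hpf 1356 of 26512 pairs (5.11%) shared 20 bp or less and 1143 just missed. Between the stages, 13 site pairs overlapped by 20 bp or less and 17 just missed. Requiring an overlap of 50% of the shorter interval left 2632 kept, 17712 gained and 3866 lost regions.

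The 3 kept regions with the best mean rank in the 4 lists were among the tallest peaks of every Raraa library. At chr20:4437635-4438058 the summit was covered by 196 and 255 fragments at 80% epiboly and by 170 and 217 at 24 hpf. At chr17:53292577-53292897 it was covered by 158 and 212 fragments at 80% epiboly and by 135 and 150 at 24 hpf. The stages overlapped at the first of these and not at the second, on values that are not corrected for depth. At chr4:57548150-57548693 the values were 206 and 173 fragments at 80% epiboly and 91 and 220 at 24 hpf, so replicate 1 of 24 hpf lay lowest and the stages overlapped. All 3 also held a peak in each of the 12 Hoxb1b, Meis2b and Sox3 libraries, so this signal was not limited to the Raraa antibody.

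The 3 best ranked gained regions without any 80% epiboly control peak were clear peaks at 24 hpf. The first, chr11:18498960-18499415, had summits of 49 and 51 fragments at 24 hpf, with fold enrichments of 13.3 and 14.4. It was already called at 5 somites, with 43 and 26 fragments, and of the 12 libraries of other antibodies 1 Sox3 library held a peak there. The second, chr21:17588105-17588606, had 50 and 38 fragments at 24 hpf and 23 and 15 at 5 somites. The third, chr23:13883643-13884029, had 28 and 39 fragments at 24 hpf and 31 and 20 at 5 somites, so at this region the 2 stages overlapped. Other antibodies had a peak in 1 library at the second and in 6 at the third. All 3 were called in both atRA libraries at 80% epiboly as well, with 71 and 24, 34 and 8, and 72 and 24 fragments. They were thus absent from the untreated 80% epiboly lists but not from those of the same stage after atRA. Most gained regions of this kind were not called in both atRA libraries. An atRA site, with overlapping peaks of both replicates, lay at 13.3% of the 11660 gained regions with no 80% epiboly peak, against 30.1% of all regions. Singly, atRA replicates 1 and 2 held a peak at 57.9% and 15.1% of these gained regions, against 72.4% and 31.1% of all regions. At the 2229 lost regions with no 24 hpf peak the share with an atRA site was 21.8%, and the single shares were 62.2% and 23.0%.

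The 3 best ranked lost regions without any 24 hpf peak were lower. The first, chr9:11288305-11288719, had 20 and 27 fragments at 80% epiboly and 9 and 11 at 5 somites. The second, chr19:9857301-9857782, had 11 and 23 fragments at 80% epiboly and 7 and 6 at 5 somites. The third, chr21:37519937-37520410, had 13 and 30 fragments at 80% epiboly and 22 and 16 at 5 somites. Each was also called in both atRA libraries, with 94 and 68, 35 and 13, and 79 and 43 fragments, and in 8, 7 and 12 of the 12 libraries of other antibodies. All 3 thus still held a peak in both libraries at 5 somites, and the 2 libraries of 24 hpf held none.

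**Figure D2:**
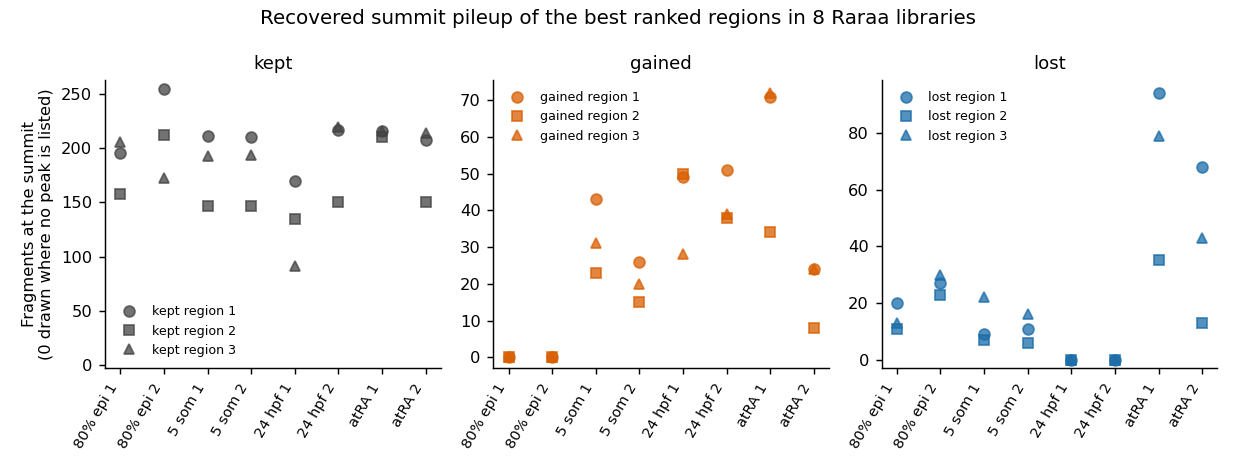
Fragments covering the summit (y axis, recovered from the authors' values, drawn at 0 where no peak is listed) of the 3 best ranked kept, gained and lost regions in the 8 Raraa libraries (x axis, replicates 1 and 2 of each group). The gained regions already held 15 to 43 fragments at 5 somites, and the lost regions still held 6 to 22 there; the y scale differs between panels, and libraries differ in depth.

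The 5 somites libraries lie between the 2 stages in time and took no part in choosing the regions. A 5 somites site, again requiring both replicates, was present at 77.9% of kept, 26.1% of gained and 23.9% of lost regions, against 31.3% of all regions. In single libraries, peaks of 5 somites replicates 1 and 2 lay in 88.1% and 86.1% of kept regions, in 44.8% and 43.7% of gained regions and in 40.9% and 41.3% of lost regions. Over all regions these libraries held a peak at 48.7% and 47.8%. Kept regions were thus far above the others in both libraries, and gained stood a little above lost in both. That small gap turned when a 24 hpf library was left out. A 5 somites site then lay at 11.8% of gained and 17.9% of lost regions without replicate 1, and at 9.40% and 21.7% without replicate 2. Every peak of the remaining library then counted as a site, which raised gained regions to 106751 and 110968. The setting thus also drops the replicate rule, and the part of that in the turn was not tested. For comparison, of the peaks that lay in no region, between 4.57% (80% epiboly replicate 1) and 8.08% (24 hpf replicate 2) coincided with a 5 somites site. Those are single peaks rather than merged extents, and they ranked lower in their lists than gained or lost regions. The contrast is thus not like for like. A 5 somites site lay at 17.1% of the 11660 gained regions with no 80% epiboly peak, and at 13% of the 2229 lost regions with no 24 hpf peak.

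An atRA site at 80% epiboly was found at 80.4% of kept, 22.0% of gained and 34.2% of lost regions, against 30.1% of all regions. In atRA replicates 1 and 2, which held 254915 and 59938 peaks, the shares were 98.0% and 80.4% of kept, 68.5% and 23.2% of gained and 73.9% and 34.7% of lost regions. Over all regions they were 72.4% and 31.1%. Lost regions were above gained ones in both libraries, the reverse of the order at 5 somites. This order too turned when an 80% epiboly library was left out. The shares were then 14.6% of gained and 9.26% of lost regions without replicate 1, and 21.7% and 14.5% without replicate 2. Here as well every peak of the remaining library counted as a site, which raised lost regions to 118423 and 19824. The part of that in the turn was not tested. Both a 5 somites and an atRA site were present at 2153 kept regions (67.9%), at 2408 gained (10.9%) and at 676 lost regions (14.3%), against 17.5% of all regions. Neither was present at 304 kept (9.58%), 13832 gained (62.7%) and 2653 lost regions (56.2%), against 56.1% of all regions. Of gained regions, 3353 (15.2%) had a 5 somites site and no atRA site, and 2451 (11.1%) the opposite, against 13.8% and 12.6% of all regions. Of lost regions, 454 (9.62%) had a 5 somites site and no atRA site, and 937 (19.9%) the opposite.

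The order of gained and lost regions differed between 5 somites and 80% epiboly among the 16 libraries outside the comparison. The log2 ratio of the share of gained regions with a peak to the share of lost regions was 0.13 and 0.08 in the 5 somites libraries. It was below 0 in all 14 libraries at 80% epiboly, from -0.58 in Raraa atRA replicate 2 to -0.11 in Raraa atRA replicate 1. The means were 0.11 ± 0.04 (SD, n = 2) and -0.34 ± 0.15 (SD, n = 14), a difference of 0.44. This comparison was added after the shares had been seen and restates their order, so no p is given for it. Leaving out 1 library of the comparison at a time, the difference ranged from 0.25 to 0.52, although the order of gained and lost regions in single readouts could turn, as given above. Against the 8 atRA libraries alone the difference was 0.51, and against the 6 untreated Hoxb1b, Meis2b and Sox3 libraries alone 0.36. Between the 2 libraries at 5 somites and the 2 Raraa atRA libraries it was 0.45. Libraries of 1 antibody are not independent of each other, and per the labels chromatin was divided into aliquots for the antibodies, so some of the 80% epiboly libraries may share embryos with those that defined the lost regions; the part of this in the result was not tested.

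**Figure D3:**
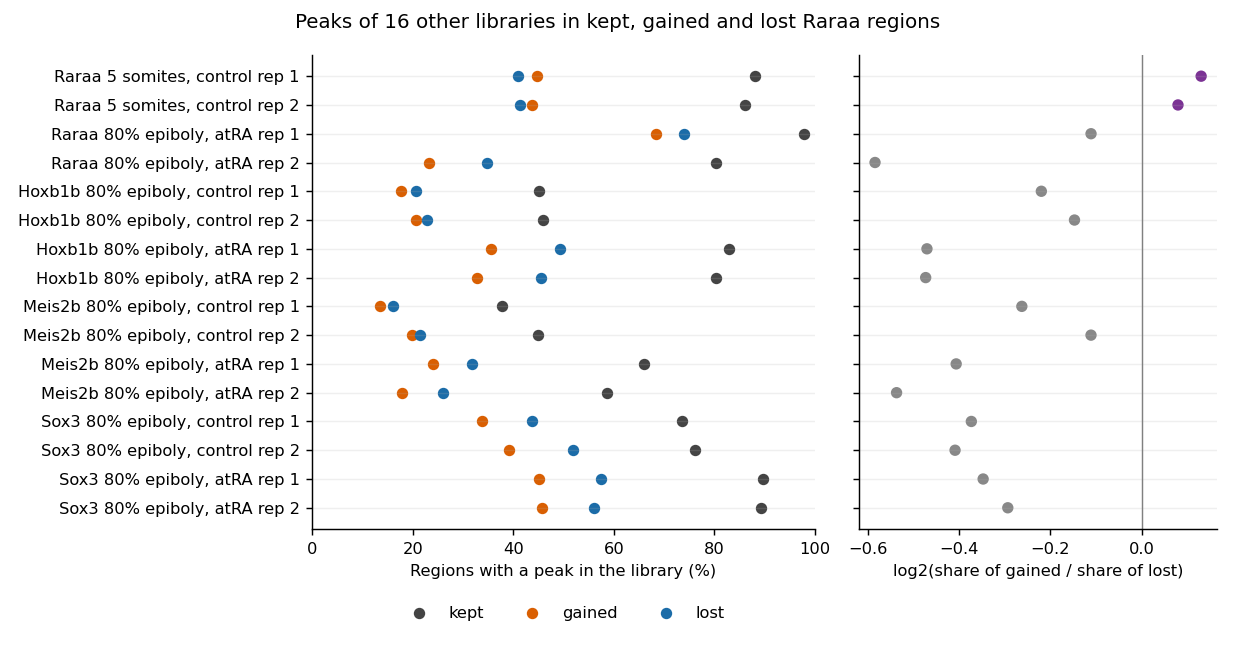
Left, the percentage of kept, gained and lost regions (x axis) that held a peak in each of 16 libraries not used to choose them (y axis, 1 row per library). Right, the log2 ratio of the gained to the lost percentage in the same libraries; it lies above 0 in both 5 somites libraries (0.13 and 0.08) and below 0 in the 14 libraries at 80% epiboly.

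Occupancy at 5 somites followed peak strength within each class. Among gained regions ordered by mean rank at 24 hpf, a 5 somites site was present at 47.9% of the strongest 20% and at 13.5% of the weakest 20%. The share with no peak in either 80% epiboly library ran the other way, from 38.9% to 62.7%. Among lost regions ordered by rank at 80% epiboly, the share with a 5 somites site went from 44.0% to 14.0%, and that with an atRA site from 63.2% to 18.8%. Kept regions ordered by rank at 24 hpf went from 99.7% to 52.8% for a 5 somites site, so on this readout their weakest 20% stood above the strongest 20% of gained (47.9%) and lost (44.0%) regions. For an atRA site this did not hold, since the weakest 20% of kept regions had 60.4%, below the 63.2% of the strongest lost regions. Those weakest kept regions had median summits of 7 and 8 fragments at 24 hpf, fewer than the 10 and 11 of the strongest gained ones. They were wider, however, with a median of 429.5 bp against 337 bp, and a wider region meets a peak more readily. Kept regions were also chosen by peaks in all 4 libraries. The part of width and of this choice in the shares was not tested.

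**Figure D4:**
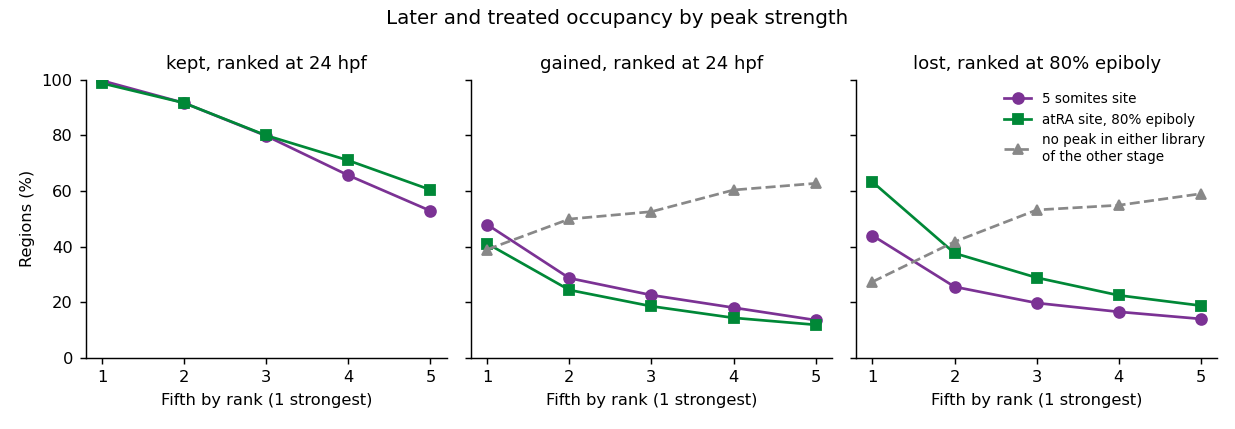
Percentage of regions (y axis) with a 5 somites site, with an atRA site at 80% epiboly, and with no peak in either library of the other stage, by bins of 20% in order of strength within each class (x axis, 1 strongest). The 5 somites share runs from 99.7% to 52.8% in kept, 47.9% to 13.5% in gained and 44.0% to 14.0% in lost regions.

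Kept regions were widely shared with the other antibodies at 80% epiboly. In replicates 1 and 2 of untreated embryos, Sox3 peaks lay at 73.7% and 76.1% of kept, 33.7% and 39.1% of gained and 43.7% and 51.9% of lost regions, against 39.5% and 45% of all regions. After atRA the Sox3 shares were 89.8% and 89.2%, 45.1% and 45.8%, and 57.4% and 56.1%, against 51.8% and 52% of all regions. Sox3 thus marked lost regions more often than gained ones in all 4 of its libraries. Untreated Hoxb1b peaks lay at 45.2% and 45.9% of kept, 17.7% and 20.7% of gained and 20.6% and 22.9% of lost regions, against 21% and 23.7% of all. After atRA the Hoxb1b shares were 83.0% and 80.3%, 35.6% and 32.8%, and 49.3% and 45.5%, against 42.8% and 39.8% of all. The atRA lists of Hoxb1b were longer, with 86866 and 71640 peaks against 42278 and 58750 untreated. Untreated Meis2b peaks lay at 37.7% and 44.9% of kept, 13.4% and 19.8% of gained and 16% and 21.4% of lost regions, against 16.4% and 22.7% of all. After atRA the Meis2b shares were 66.0% and 58.7%, 24.0% and 17.9%, and 31.8% and 26%, against 29.7% and 23.5% of all. Shares differ with the length and depth of each list, so they are read here between classes within a library, not between libraries.

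Counted over libraries, at least 1 of the 12 held a peak at 84.8% of all regions. At least 1 of the 4 Sox3 libraries held a peak at 96.1% of kept, 67.2% of gained and 75.3% of lost regions, against 71.5% of all regions. For Hoxb1b the shares were 92.5%, 58.6% and 67.4%, against 63.6% of all, and for Meis2b 82.9%, 46.4% and 52.0%, against 51.2% of all. Counted this way, lost regions lay above all regions and gained ones below, both near them, and kept regions stood far above. Gained regions make up 73.6% of all regions, so their shares lie near those of all regions by construction. In single untreated Hoxb1b and Meis2b libraries, lost regions also lay below all regions. The median kept region held a peak in 8 of the 12 libraries, the median gained region in 3 and the median lost region in 4. This number followed peak strength within each class. By rank at 80% epiboly, medians of the strongest and weakest 20% were 11 and 7 for kept, 7 and 2 for lost regions. By rank at 24 hpf they were 10 and 7 for kept, and 5 and 2 for gained regions. Kept regions were also wider, and the part of strength and width in these counts was not tested. A peak in all 12 was found at 365 kept (11.5%), 94 gained (0.426%) and 70 lost regions (1.48%), and 346 kept regions (10.9%) were called in all 20 libraries of the series. The medians and the counts of a peak in all 12 were taken by class, without a value over all regions. They are therefore not read as an excess or a lack in gained or lost regions. No peak of another antibody was listed at 36 kept (1.13%), 3870 gained (17.6%) and 631 lost regions (13.4%). Among Raraa libraries alone, 2184 kept regions (68.9%) were called in all 8. By definition the 4 libraries of the comparison hold a peak at every kept region. The counts over all 8 and all 20 libraries thus rest on the other libraries, and they were made for kept regions only. In all 12 libraries of the other antibodies the share of lost regions was above that of gained regions. Among regions with no peak in either library of the other stage, this order was gone in untreated Meis2b replicate 2. It held a peak at 14.7% of such gained and 14.6% of such lost regions, and the other libraries kept the order.

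All 25 chromosomes held regions of each class. Kept regions ranged from 1.72 per Mb on chromosome 1 to 2.9 on chromosome 10, counted over the extent spanned by peaks. Gained regions ranged from 9.44 per Mb on chromosome 4 to 19.6 on chromosome 23, and lost regions from 2.39 on chromosome 4 to 4.77 on chromosome 7. Chromosome 4 had the highest percentage of kept regions, 14.6% of its own, and chromosome 9 the lowest, 8.36%. Lost regions made up 20.6% of those on chromosome 7 and 13.5% of those on chromosome 9. Kept regions had a kept neighbour more often than the other classes did: 24.6% had another kept region within 10 kb, against 5.46% of gained and 8.56% of lost regions. Gaps among gained regions and among lost regions were not measured. The share over all regions and that expected from the density of kept regions were not measured either. The 1 Mb windows richest in kept regions were chr10:16000001-17000000 with 29, chr8:34000001-35000000 with 26 and chr2:19000001-20000000 with 25. Kept regions there held a median of 11, 11 and 10 of the 12 libraries of other antibodies, above the 8 of all kept regions.

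The 2 untreated Raraa libraries at 80% epiboly held a larger share of their peaks on chromosomes 5 and 7 than the other 18 libraries, which include the 6 untreated Hoxb1b, Meis2b and Sox3 libraries of the same stage. Chromosome 7 held 6.98% and 6.46% of the Raraa peaks of replicates 1 and 2 at 80% epiboly and 5.29% and 5.62% at 24 hpf. In the 18 libraries other than this Raraa pair its share lay between 5.29% and 5.98%. For chromosome 5 the values were 6.27% and 5.92% at 80% epiboly, against 5.22% to 5.73% in those 18. Both libraries of the pair lay above the 18 on these 2 chromosomes and below them on 4, namely 11, 12, 13 and 18. Among the 10000 strongest peaks the separation of the pair from all 18 was gone. The shares were 6.69% and 6.56% on chromosome 7 against 5.32% to 6.72%, and 6.06% and 5.79% on chromosome 5 against 5.03% to 5.96%. The 24 hpf Raraa libraries still lay below the pair, with 5.37% and 5.32% on chromosome 7 and 5.15% and 5.34% on chromosome 5. These chromosomes were singled out after their values had been seen.

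**Figure D5:**
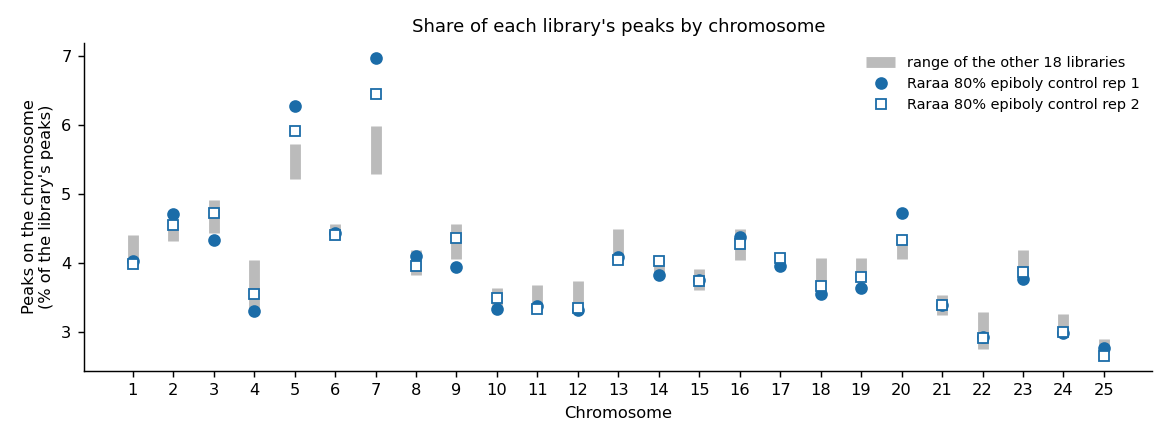
Percentage of a library's peaks on each chromosome (y axis) for the 2 untreated Raraa libraries at 80% epiboly (circles and squares) and the range of the other 18 libraries (grey bars). Both points lie above the bar on chromosomes 5 and 7, at 6.27% and 5.92% and at 6.98% and 6.46%.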

How the data were processed

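Each library has 1 peak list, with coordinates on GRCz10 (danRer10). Per the submitters' processing notes, Bowtie, SAMtools and MACS2 were used; settings, versions and whether an input library was used are not given in the sources used here. Peaks were called per library, since each list carries a single name prefix. The authors' deposited values for each peak are a fold enrichment (a ratio to background), a −log10 p, a −log10 q and the other value used, the summit's offset. All peaks have q under 0.05. Per the labels, chromatin was sonicated to about 300 bp and tagged with Tn5 on the beads.

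Overlaps were computed in Python 3.11.15 (numpy 2.4.6, pandas 2.3.3, scipy 1.17.1). Summit pileups k over a background b were recovered from fold = (k+1)/(b+1) and the Poisson p, within 0.002 in −log10 p for 100% of peaks; the depth index is the 0.001 quantile of b. Total reads are unknown. The classing of regions, the overlap of intervals and the recovery of pileups were tested on simulated data, and the other steps were not. Stage tests were exact permutation tests over libraries; 2 against 2 cannot pass 0.05. Named regions are the 3 of each class that rank best on average by deposited p, taken for gained and lost ones among those without a peak in either library of the other stage. Gene lists, motifs and sequences, part of the design, were not analysed here, since no danRer10 genome or annotation was used. Regions, readouts and tests were chosen with earlier results of these data known. Alternatives were a stricter q, equal peak numbers, the 10000 strongest peaks, a 50% overlap, leaving out each library and a replicate block.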

Additional observations from a re-analysis of the deposited data

Results flagged for a closer look

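The same rule applied to sequences other than chr1 to chr25, which the comparison leaves out, gave 816 regions on 417 sequences. Of these, 168 were kept, 495 gained and 153 lost, so 20.6% were kept, against 10.6% on the assembled chromosomes. They were set apart because they lie outside the main measurement, and 5 of them were mitochondrial.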

How the results depend on the processing

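Counts of regions followed the peak lists used. Kept, gained and lost regions numbered 1025, 2554 and 750 with q of at most 1e-05, 1467, 3251 and 2327 with equal peak numbers, and 997, 1539 and 983 with the 10000 strongest peaks. Leaving out 1 library at a time, they ranged from 3928 to 12828, 12353 to 110968 and 3075 to 118423, since 1 library then defines a stage. Requiring no peak in either library of the other stage left 11660 gained and 2229 lost regions. An overlap of 50% kept all 3 counts within 1.5 times. The share of 80% epiboly sites kept was 57.8%, 38.8% and 50.4% in the first 3 settings and 10.2% to 61.2% without 1 library. In the order of those 3 settings and then the 50% overlap, a 5 somites site was found at 90.2%, 83.6%, 88.4% and 79.4% of kept regions and at 39.8%, 29.7%, 38.9% and 23.5% of gained regions. At lost regions it was found at 38.7%, 24.2%, 34.6% and 23.2% in the same order. With no peak in the other stage the shares were 17.1% of gained and 13% of lost regions. Leaving out 1 library they ranged from 46.9% to 70.4% of kept, 9.40% to 25.8% of gained and 8.22% to 21.7% of lost regions. The 2 atRA libraries differ widely, with an SD of 12.4, 32.0 and 27.7 points for kept, gained and lost regions. The atRA share moved beyond that SD only for kept regions without 80% epiboly replicate 1 (44.0%). The SD of gained regions exceeds their share (22.0%), and a lost share of 59.7% with q of at most 1e-05 lay within it for lost regions. This measure therefore cannot show that the gained and lost shares were stable. Without 1 library the atRA share ranged from 44.0% to 72.2% of kept, 8.61% to 21.7% of gained and 9.26% to 31.9% of lost regions. The order of gained and lost turned as given above for both readouts. Stage separation changed sign without 80% epiboly replicate 1 (-2.59 points) and without 24 hpf replicate 1 (-3.13 points), and its range without 1 library ended at 6.40 points. The log2 ratio of peak number was -0.21 without 80% epiboly replicate 1, and up to 2.25 without another library; with equal numbers it has no value. The cause was not tested. The difference between 5 somites and 80% epiboly libraries in the gained over lost ratio stayed above 0 throughout, from 0.25 to 0.52 without 1 library, and was 0.45 with Raraa libraries alone. With the replicate number as a block, stage separation was 1.46 points (exact permutation p = 0.5, the smallest possible) and the log2 ratio of peak number 1.02 (exact sign flips, p = 1). The labels do not say that the numbers pair the libraries; deviations of log2 fold at 3172 kept regions correlated at 0.145 between the stages.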

Other observations

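Regions without a peak of any other antibody were looked at after the values had been seen, by the same ranking. The best ranked kept ones were chr3:1458964-1459321, with 60 and 58 fragments at 80% epiboly and 42 and 47 at 24 hpf, and chr24:247100-247696, with 18 and 31 and then 26 and 32. Both were also called in both 5 somites and both atRA libraries. The best ranked gained ones were chr20:21056171-21056523, with 18 and 25 fragments at 24 hpf and 15 and 13 at 5 somites, and chr10:28234273-28234596, with 28 and 24 at 24 hpf and 8 and 8 at 5 somites. Each of these 2 was called in atRA replicate 1 (19 and 17 fragments) but not in atRA replicate 2. The best ranked lost ones were low: chr20:47108217-47108497 had 8 and 12 fragments at 80% epiboly, and chr10:20619488-20619706 had 8 and 13 and held no peak in the 5 somites or atRA libraries.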
